A study of Homo sapiens with 6 samples.

Results

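The 35 genes described here encode aminoacyl-tRNA synthetases, the enzymes that join each amino acid to its tRNA before the ribosome can use it. They were taken by gene symbol from the 26524 genes of the deposited count table, and each of the 35 symbols had 1 row. By symbol, 19 belong to the cytosolic set, which includes GARS1 and KARS1, whose genes also give the mitochondrial form, and 16 to the mitochondrial set. The cells were SCC25, an established line of squamous carcinoma of the human tongue. Polyadenylated RNA was sequenced from 3 control libraries and from 3 libraries of cells carrying a short hairpin against LIS1, the product of PAFAH1B1, called shLIS1 below. The labels give the first group as genotype Control and the second as genotype Knockdown, name no other allele or agent, and place all 6 libraries in batch 1. They do not say whether control cells carried a hairpin, whether the 3 hairpin libraries share 1 hairpin or clone, or whether libraries came from separate cultures. P-values therefore measure the spread between these libraries, which may be technical.

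Levels are given in CPM, counts scaled to a common library total, and values listed by 3 follow libraries 1, 2 and 3 of a group. Library totals ran from 15661916 to 22790599 counts. The targeted PAFAH1B1 was at 157, 165 and 154 CPM in control and at 111, 109 and 113 CPM in shLIS1, which is 69.8% of the control mean (log2 fold change -0.52, SE 0.05; edgeR adjusted p = 6.5e-08). With an offset for transcript length and GC, described below, it was at -0.81, or 56.9% of control. The second principal component, with 14.5% of the variance, set control library 1 apart from the others. All 8 squamous epithelial markers were tested, and they summed to 11856 to 12061 CPM in control and 10419 to 11155 CPM in shLIS1. They did not move together: KRT5 (-0.26), KRT14 (-0.50), TP63 (-0.14) and EPCAM (-0.31) fell, and KRT6A (0.27), CDH1 (0.16) and DSG3 (0.49) rose. SFN was not called (-0.03). With the offset KRT5 and CDH1 lost their calls and SFN rose (0.33). Of 6 fibroblast markers 4 were tested, and the list summed to 17.1 to 21.9 CPM in control and 13.3 to 15.8 CPM in shLIS1. Of 3 endothelial markers 2 were tested, summing to 12.8 to 17.1 CPM and 7.15 to 8.54 CPM. Of 5 immune markers 3 were matched and 0 passed the filter on low counts, with sums of at most 0.303 CPM. CDH5, at 11.4 to 14.7 CPM in control, fell (-0.93), as did COL1A1 (-0.50), COL1A2 (-0.97) and PDGFRB (-1.02). PDGFRB lay at only 0.371 to 1.15 CPM and lost its call with the offset (-0.88). LUM went the other way without a call (0.33), and VWF was not called (-0.65). PECAM1, DCN and COL3A1 were at or below 0.453 CPM in every library, and the part of these lists in the results was not tested. In bulk RNA of an established line, fewer cells expressing a gene and less RNA per cell cannot be told apart.

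Synthetases fall into class I and class II by the fold of their active site, and cells keep separate enzymes for the cytosol and the mitochondrion, all of them encoded in the nucleus. In the cytosol of animal cells, several synthetases are held in a multisynthetase complex with the scaffold proteins AIMP1, AIMP2 and EEF1E1, while the rest are free. When a tRNA lacks its amino acid, the kinase GCN2 (EIF2AK4) is activated and translation of the transcription factor ATF4 rises. Many cytosolic synthetase genes are known ATF4 targets in mammalian cells, through an element in which ATF4 binds together with a C/EBP protein.

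The letters TGATGCAA, the core of such C/EBP-ATF elements, and their reverse complement TTGCATCA were searched in promoter windows from RefSeq (build GRCh38.p14), each from 250 bases before to 50 bases after an annotated start. No other motif was searched. Of the 35 genes, 30 matched a window by symbol; YARS1, LARS1, VARS1, AARS2 and VARS2 did not. The letters lay in a window of 6 of 16 cytosolic genes and of 0 of 14 mitochondrial genes, against 1.08% of all 27305 genes in the promoter table and 0.866% of its 35116 windows. The 30 bases around each match are shown because the 6 genes went different ways in shLIS1, 3 falling (AARS1, CARS1 and MARS1) and 3 without a call (IARS1, TARS1 and NARS1). Capitals mark the matched letters, read 5′ to 3′ along the strand of the gene.
AARS1: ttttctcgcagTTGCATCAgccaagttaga
CARS1: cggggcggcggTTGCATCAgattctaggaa
MARS1: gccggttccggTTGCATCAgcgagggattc
IARS1: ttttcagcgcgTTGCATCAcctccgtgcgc
TARS1: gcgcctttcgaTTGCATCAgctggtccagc
NARS1: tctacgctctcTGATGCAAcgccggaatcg
The AARS1 stretch is chr16:70289675-70289704, minus strand. The CARS1 stretch is chr11:3057407-3057436, minus strand. The MARS1 stretch is chr12:57488053-57488082, plus strand. The IARS1 stretch is chr9:92293692-92293721, minus strand. The TARS1 stretch is chr5:33440956-33440985, plus strand. The NARS1 stretch is chr18:57621804-57621833, minus strand. The match began 187 bases before the start of AARS1, 13 before that of IARS1, 4 before that of MARS1 and 2 before that of CARS1. In TARS1 and NARS1 it began 3 and 15 bases after it. Starts are those of RefSeq. The deposited gene spans begin farther upstream for these 6 genes, for AARS1 at 70289707 on the minus strand. All 6 stretches therefore lie inside the deposited spans. A match is a description of the letters and does not show that a factor binds there.

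The 250 bases before the RefSeq start are shown for AARS1 and SARS1, which both fell, and for RARS1, which rose. Capitals mark the same letters, which are present in the AARS1 stretch and in neither of the others.
AARS1: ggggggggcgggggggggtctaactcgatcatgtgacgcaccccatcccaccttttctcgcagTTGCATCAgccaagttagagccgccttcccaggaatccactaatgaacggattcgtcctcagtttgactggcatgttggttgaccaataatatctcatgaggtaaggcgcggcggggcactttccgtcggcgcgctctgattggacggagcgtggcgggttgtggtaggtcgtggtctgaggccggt
SARS1: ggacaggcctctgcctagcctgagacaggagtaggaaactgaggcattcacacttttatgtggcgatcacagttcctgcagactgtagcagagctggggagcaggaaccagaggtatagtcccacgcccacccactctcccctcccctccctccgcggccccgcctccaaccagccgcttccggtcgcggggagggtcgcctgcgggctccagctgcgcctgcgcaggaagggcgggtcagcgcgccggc
RARS1: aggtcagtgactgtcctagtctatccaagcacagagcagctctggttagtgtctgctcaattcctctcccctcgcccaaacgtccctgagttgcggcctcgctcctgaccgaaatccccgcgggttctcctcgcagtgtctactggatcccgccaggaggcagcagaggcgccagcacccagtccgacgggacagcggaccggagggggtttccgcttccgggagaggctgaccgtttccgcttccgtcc
These are chr16:70289507-70289756, minus strand, for AARS1, chr1:109213668-109213917, plus strand, for SARS1, and chr5:168486221-168486470, plus strand, for RARS1. Their GC content was 59.2%, 66.8% and 63.2%. Most of the AARS1 stretch and the last bases of the RARS1 stretch lie inside the deposited gene spans. The SARS1 stretch lies before its span.

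Of the 19 cytosolic genes, all of which passed the filter on low counts, 9 fell, 3 rose and 7 did not pass the threshold of an edgeR adjusted p of 0.05. Over all 14964 genes tested, 24.9% fell and 23.5% rose. The share that fell was thus 47.4% among the cytosolic genes and the share that rose 15.8%, and these shares were not tested against each other. The median log2 fold change of the cytosolic genes was -0.12, against -0.01 over all tested genes. The 19 genes summed to 4697, 5052 and 4917 CPM in control and to 4578, 4476 and 4404 CPM in shLIS1.

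SARS1 (ENSG00000031698, chromosome 1, 109213918 to 109238182, build hg38), which charges the serine tRNA, stood at 258, 260 and 260 CPM in control and 180, 184 and 186 CPM in shLIS1. Every shLIS1 library lay below every control library, and the spread within each group was small beside the gap. The mean went from 259 ± 0.804 to 183 ± 2.85 CPM (SD, n = 3 libraries in each group). Its log2 fold change was -0.50, with an SE of 0.05 and an edgeR adjusted p of 8.7e-08. AARS1 (ENSG00000090861, chromosome 16, 70251983 to 70289707), the alanine enzyme, was at 481, 464 and 453 CPM in control and 321, 330 and 339 CPM in shLIS1. Its log2 fold change was also -0.50 (SE 0.05, adjusted p = 1.1e-07), and 70.8% of the control mean was left.

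WARS1 (chromosome 14, 100333790 to 100376805), the tryptophan enzyme and also a known interferon-induced gene, was at 199, 204 and 204 CPM in control and 151, 144 and 145 CPM in shLIS1 (log2 fold change -0.47, SE 0.05; adjusted p = 2.2e-07). MARS1 (chromosome 12, 57475445 to 57517569), the methionine enzyme, was at 363, 357 and 369 CPM in control and 271, 259 and 270 CPM in shLIS1 (log2 fold change -0.44, SE 0.05; adjusted p = 5.4e-07). CARS1 (chromosome 11, 3000922 to 3057613), the cysteine enzyme, was at 135, 139 and 137 CPM in control and 103, 97.8 and 108 CPM in shLIS1 (log2 fold change -0.41, SE 0.05; adjusted p = 2.2e-06). The groups were apart for all 3 genes, and shLIS1 kept 72.4% to 75.2% of the control mean. The span of MARS1 overlaps DDIT3 by 982 bases on the opposite strand; how the counting treated strand is not known, and DDIT3 held 6.53% as many counts as MARS1.

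The smaller falls were in YARS1, QARS1, FARSA and VARS1. YARS1, the tyrosine enzyme, went from 283, 294 and 293 CPM in control to 238, 225 and 223 CPM (log2 fold change -0.34, SE 0.05, adjusted p = 1.8e-05). S100PBP overlaps YARS1 by 1265 bases on the opposite strand and held 10.1% as many counts. QARS1, which charges the glutamine tRNA, went from 122, 120 and 116 CPM to 105, 91.7 and 89.8 CPM (-0.32, SE 0.06, adjusted p = 0.00014). FARSA, the alpha subunit of the phenylalanine enzyme, and VARS1, the valine enzyme, had log2 fold changes of -0.24 (SE 0.06, adjusted p = 0.0020) and -0.23 (SE 0.06, adjusted p = 0.0022). FARSA lay at 121, 132 and 137 CPM in control and 115, 112 and 105 CPM in shLIS1. VARS1 lay at 165, 175 and 187 CPM in control and 159, 145 and 145 CPM in shLIS1. The groups of FARSA and VARS1 lay close to each other without overlapping.

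**Figure D1:**
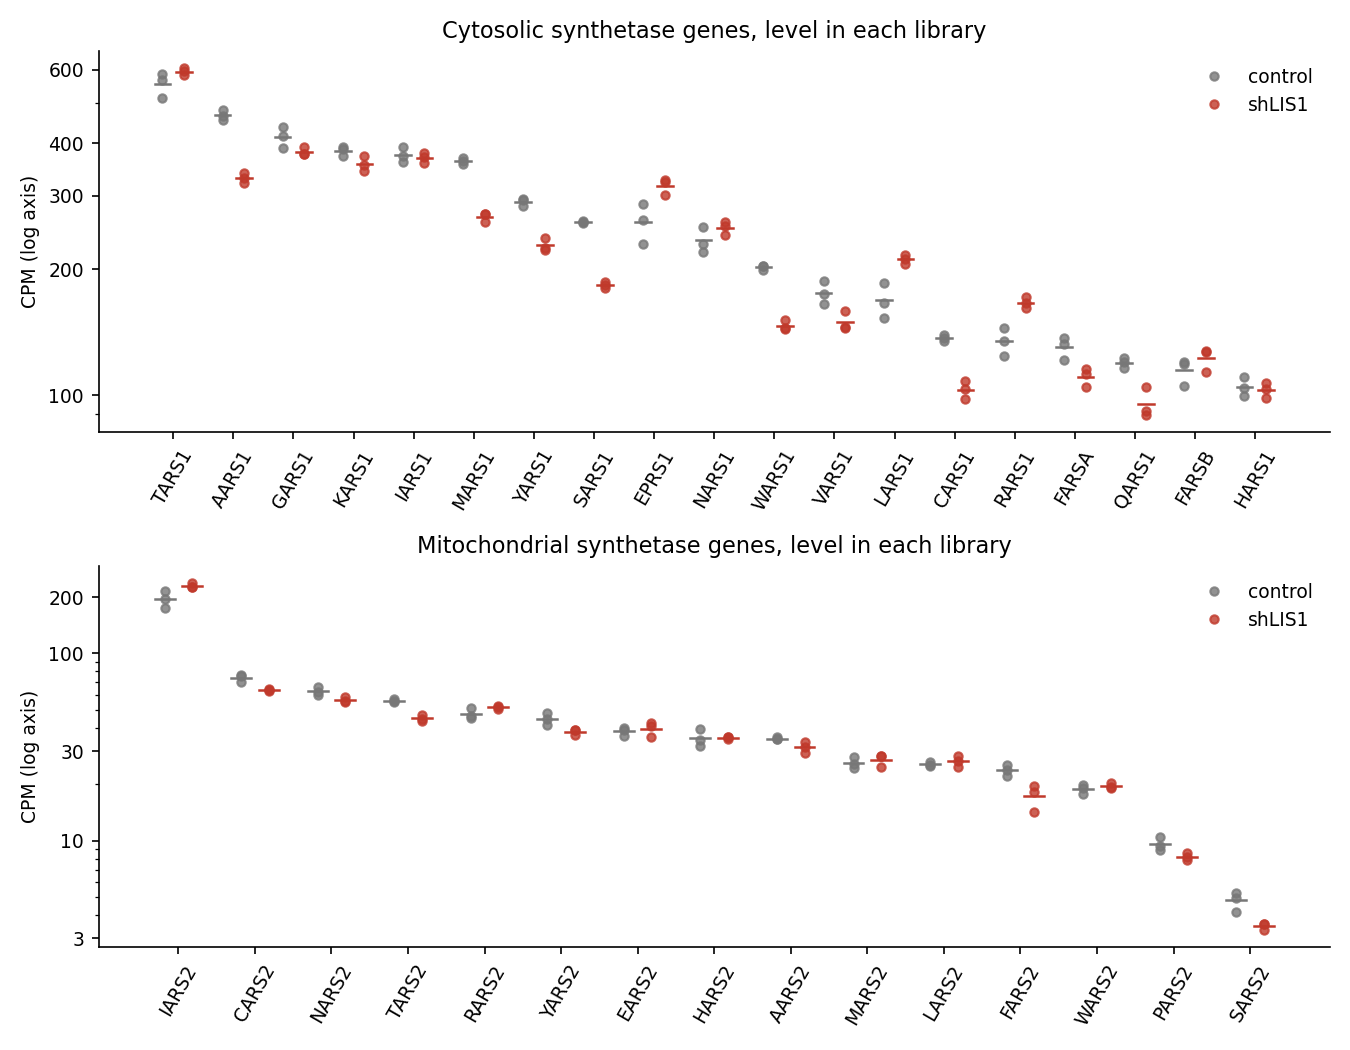
Level of each tested synthetase gene in CPM on a log axis, with 1 point per library, grey for control and red for shLIS1, and a line at the mean of 3. Genes are ordered by their control mean. The shLIS1 points of SARS1, AARS1, WARS1, MARS1 and CARS1 lie below all their control points, and those of EPRS1, LARS1, RARS1 and IARS2 above.

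Leucine, arginine, glutamate and proline enzymes rose. LARS1 (chromosome 5, 146110566 to 146182696), the leucine enzyme, was at 153, 186 and 166 CPM in control and 217, 212 and 205 CPM in shLIS1 (log2 fold change 0.33, SE 0.06; edgeR adjusted p = 0.00020). RARS1 (chromosome 5, 168486451 to 168519301), the arginine enzyme, was at 124, 145 and 135 CPM in control and 171, 166 and 162 CPM in shLIS1 (log2 fold change 0.31, SE 0.06; adjusted p = 0.00016). EPRS1 (chromosome 1, 219968600 to 220046530), which holds the glutamate and the proline enzyme in 1 chain, was at 230, 286 and 262 CPM in control and 326, 323 and 301 CPM in shLIS1 (0.29, SE 0.07, adjusted p = 0.0016). The groups did not overlap for these genes. Control library 1 was the lowest and control library 2 the highest control in each of the 3. Their calls held when either was left out.

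The 7 cytosolic genes that did not pass were TARS1, GARS1, KARS1, IARS1, NARS1, FARSB and HARS1, with log2 fold changes between -0.12 and 0.10. TARS1, the threonine enzyme, had the highest control mean in CPM of the 35 genes, with 513, 586 and 567 CPM in control and 605, 594 and 582 CPM in shLIS1. Its groups overlapped, as did those of GARS1, IARS1, NARS1, FARSB and HARS1. KARS1, the lysine enzyme, was at 373, 391 and 388 CPM in control and 373, 356 and 343 CPM in shLIS1 (log2 fold change -0.11, adjusted p = 0.10). Its groups were apart by under 1 CPM, and its span overlaps TERF2IP, which held 14.0% as many counts. Single libraries decided some of these calls: without control library 1, GARS1 (-0.17) and KARS1 (-0.13) fell, and without control library 2, NARS1 rose (0.17). FARSA and FARSB are the subunits of 1 enzyme, and their count ratio was 1.16, 1.10 and 1.15 in control and 0.907, 0.886 and 0.919 in shLIS1. The ratio was lower in every shLIS1 library (difference of log2 means -0.33; exact permutation test, two-sided, p = 0.10, the smallest p that 3 against 3 libraries allow). With the length and GC offset described next, neither gene was called and the difference turned to 0.17.

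Across all genes, fold changes followed the GC content of the transcript, and the synthetases did so too. The median over all genes was 0.32 on the log2 scale in the lowest of 10 equal bins by GC content, and -0.31 in the highest. The 9 cytosolic genes that fell had transcripts of 51.5% to 62.6% GC, the 3 that rose 41.4% to 43.2% and the 7 without a call 41.6% to 48.6%. Across the 34 tested synthetase genes, which share libraries and are not independent, Spearman's rho between GC content and log2 fold change was -0.778, against -0.501 across 14491 genes. Set against the bin of genes with like GC content, SARS1, AARS1, WARS1, MARS1 and CARS1 lay below the middle 50% of fold changes, while the other 14 cytosolic genes lay within it. By construction 25% of all genes lie below that range, so 5 of 19 is near the background. The mitochondrial FARS2, NARS2 and SARS2 also lay below it, and the other 12 within it. VARS1 and FARSA, at 62.6% and 60.3% GC, had fallen by slightly less than the median of their bin (-0.31 and -0.25).

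**Figure D2:**
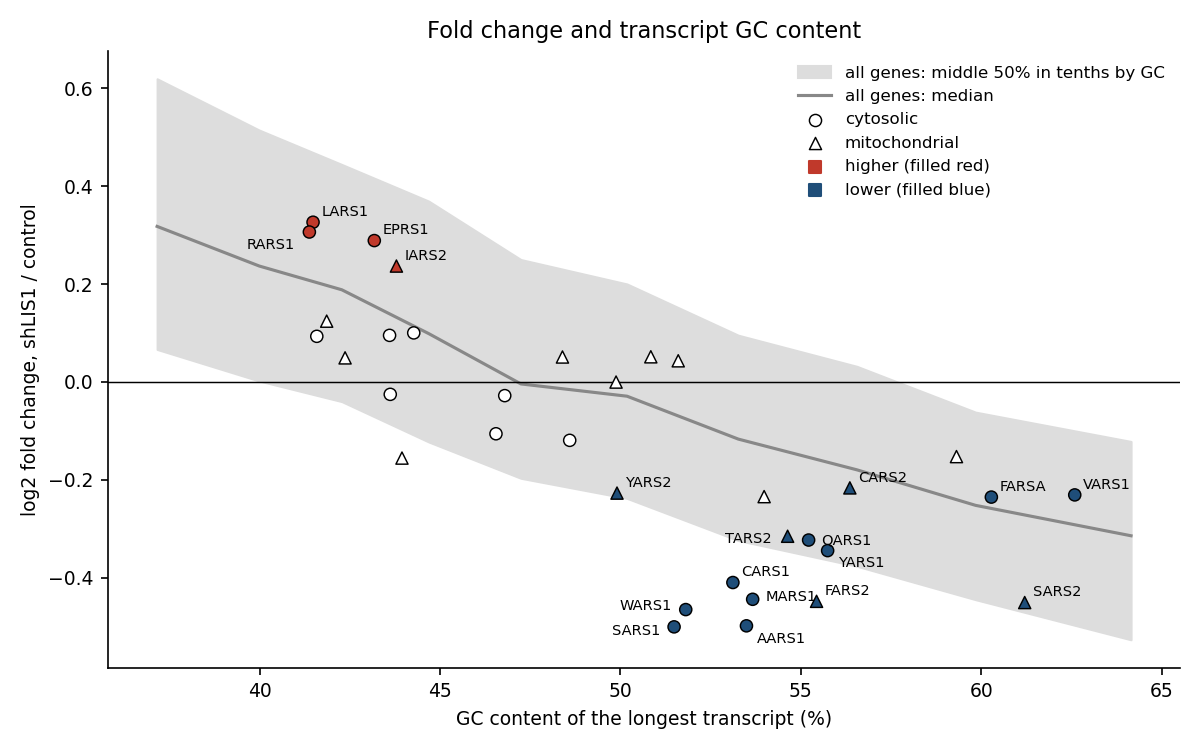
Log2 fold change of shLIS1 over control against the GC content of the longest transcript, for cytosolic (circles) and mitochondrial (triangles) synthetase genes, with red and blue for genes that rose and fell. The grey line and band are the median and middle 50% of all genes in 10 bins by GC content. SARS1, AARS1, WARS1, MARS1, CARS1 and the mitochondrial FARS2 and NARS2 lie below the drawn band, SARS2 lies close to its lower edge, and LARS1, RARS1, EPRS1 and IARS2 lie inside it.

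An offset that removes, library by library, a smooth trend over transcript length and GC content was therefore fitted as an alternative. With it, 24.0% of 14491 genes fell and 17.7% rose, and of the 19 cytosolic genes 9 fell and 1 rose. SARS1 (-0.40), AARS1 (-0.43), WARS1 (-0.42), MARS1 (-0.35), CARS1 (-0.32), YARS1 (-0.22) and QARS1 (-0.19) still fell, with edgeR adjusted p from 9.4e-08 for WARS1 to 0.0060 for QARS1. RARS1 still rose (0.20, adjusted p = 0.0014). LARS1 (0.05), EPRS1 (0.06), FARSA (0.069) and VARS1 (-0.01) lost their calls. IARS1, the isoleucine enzyme, and KARS1 gained a call as lower, with log2 fold changes of -0.23 (adjusted p = 0.00035) and -0.13 (adjusted p = 0.036). In the fit on group alone IARS1 ranged from 361 to 391.99 CPM in control and from 358 to 378 CPM in shLIS1, with overlapping groups.

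**Figure D3:**
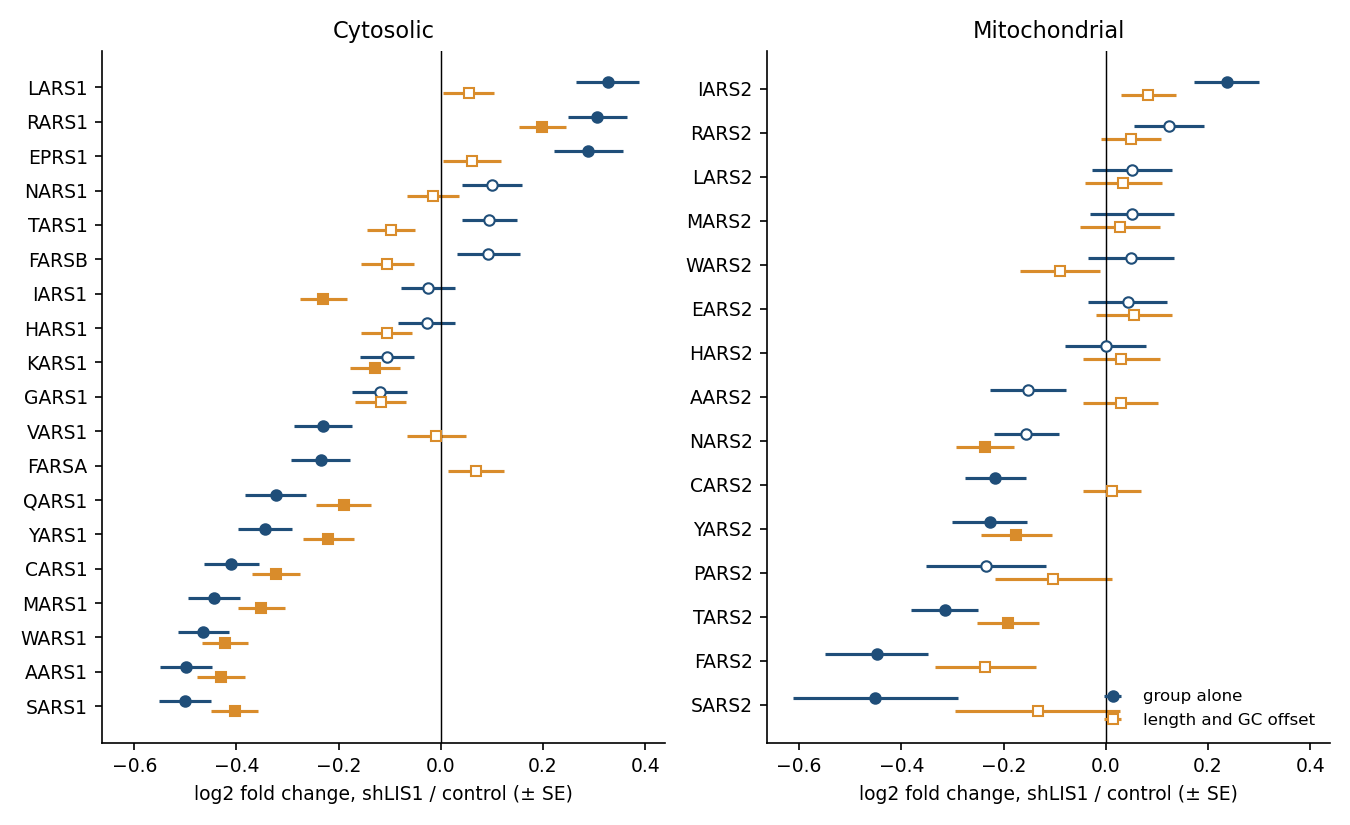
Log2 fold change of shLIS1 over control with its SE for each tested cytosolic and mitochondrial synthetase gene, in the fit on group alone (blue circles) and with the length and GC offset (orange squares). Filled symbols passed an adjusted p of 0.05. Filled symbols of both kinds are seen for SARS1, AARS1, WARS1, MARS1, CARS1, YARS1, QARS1 and RARS1 on the left and for TARS2 and YARS2 on the right.

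Mitochondrial synthetase transcripts were scarcer. Per kilobase of the longest transcript, the control means of the 15 tested genes ran from 2.33 CPM for SARS2 to 54.8 CPM for IARS2, and those of the cytosolic genes from 29.96 CPM for HARS1 to 159 CPM for KARS1. VARS2, the mitochondrial valine enzyme, did not pass the filter, with 3, 2 and 0 counts in control and 7, 1 and 1 counts in shLIS1. ENSG00000288473 overlaps VARS2 by 12255 bases on the same strand and held 35.7% as many counts, so the VARS2 counts are uncertain. Of the other 15 mitochondrial synthetase genes, 5 fell, 1 rose and 9 did not pass. The shares were 33.3% lower and 6.67% higher, against 24.9% and 23.5% of all genes tested. The falls numbered 3 without control library 2, control library 3 or shLIS1 library 3, and the rises 2 without control library 2. Their summed level with VARS2 was 653, 735 and 704 CPM in control and 712, 689 and 681 CPM in shLIS1, so the groups overlapped. The median log2 fold change was -0.15, and 0.01 with the offset.

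TARS2 (chromosome 1, 150487414 to 150507602), the mitochondrial threonine enzyme, was at 54.8, 55.8 and 56.9 CPM in control and 46.9, 44.3 and 43.4 CPM in shLIS1. It fell (log2 fold change -0.32, SE 0.07; edgeR adjusted p = 0.00044), and still did with the offset (-0.19, adjusted p = 0.013). YARS2, the mitochondrial tyrosine enzyme, went from 41.3, 47.9 and 44.6 CPM to 38.9, 38.9 and 36.8 CPM (-0.23, SE 0.07, adjusted p = 0.014; -0.17 with the offset, adjusted p = 0.047). The YARS2 call was lost without control library 2 or 3 or shLIS1 library 3. Its span overlaps 18161 bases of DNM1L on the other strand, which held 335% as many counts, so a part of its counts is uncertain. The control and shLIS1 libraries of TARS2 and YARS2 did not overlap.

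The other 4 mitochondrial calls were lost with the offset. FARS2, the phenylalanine enzyme, was at 22.2, 23.9 and 25.2 CPM in control and 19.6, 14.3 and 18.2 CPM in shLIS1 (log2 fold change -0.45, SE 0.10, adjusted p = 0.0011; -0.24 with the offset, adjusted p = 0.061). SARS2, the serine enzyme, had a like fold change of -0.45 with a larger SE of 0.16 (adjusted p = 0.026), from counts of 77, 106 and 85 in control and 72, 63 and 83 in shLIS1. The SARS2 call was also lost without control library 2, without any 1 of the shLIS1 libraries and in DESeq2. CARS2, the cysteine enzyme, was at 70.2, 75.3 and 76.7 CPM in control and 64.6, 63.2 and 63.6 CPM in shLIS1 (-0.22, SE 0.06, adjusted p = 0.0049; 0.01 with the offset). ING1 on the opposite strand overlaps it and held 29.5% as many counts. Its call was also lost without control library 3. IARS2 (chromosome 1, 220094132 to 220148041), the isoleucine enzyme, was the 1 mitochondrial gene that rose, from 175, 216 and 195 CPM to 238, 226 and 226 CPM (0.24, SE 0.06, adjusted p = 0.0045; 0.08 with the offset). Its transcript had 43.8% GC, near that of the cytosolic genes that rose. NARS2, the asparagine enzyme, was at 59.7, 66.2 and 61.8 CPM in control and 58.1, 55.7 and 54.9 CPM in shLIS1. It did not pass (-0.16, adjusted p = 0.0503) and fell with the offset (-0.24, adjusted p = 0.0016) and without control library 1 (-0.19), and also passed with upper quartile scaling (adjusted p = 0.014).

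The remaining mitochondrial genes AARS2, EARS2, HARS2, LARS2, MARS2, PARS2, RARS2 and WARS2 had log2 fold changes between -0.23 and 0.12 and were called in neither fit, though RARS2 rose without control library 2 (0.19). AARS2, the alanine enzyme, was at 34.7, 34.9 and 35.6 CPM in control and 29.3, 31.8 and 33.5 CPM in shLIS1, below control in every library without passing (-0.15, adjusted p = 0.098), though it passed with upper quartile scaling (-0.19, adjusted p = 0.041). PARS2, the proline enzyme, had a larger fold change of -0.23 at 7.89 to 10.5 CPM (SE 0.12, adjusted p = 0.10). HARS1 and HARS2, the histidine pair, lie head to head on chromosome 5 with 108 overlapping bases at their 5′ ends, and had log2 fold changes of -0.03 and -0.00. WDR55 overlaps HARS1 by 1090 bases on the other strand and held 45.1% as many counts. On the same strand, ZMAT2 overlaps HARS2 by 626 bases and GGA2 overlaps EARS2 by 1242 bases. They held 223% and 228% as many counts as HARS2 and EARS2, so a part of those counts is uncertain. Over all 34 tested genes the 3 control and 3 shLIS1 libraries did not overlap for 22, or 64.7%, against 56.1% of all genes tested.

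The cytosolic and mitochondrial enzyme for the same amino acid were compared as a ratio of counts within each library, which needs no scaling between libraries. Of 12 pairs, the ratio was lower in every shLIS1 library for 6 and higher for 4, and overlapped for HARS1 to HARS2 and SARS1 to SARS2. Each of the 10 had an exact permutation p of 0.10, the smallest that 3 against 3 libraries allow, and 0.12 adjusted over the 13 ratios computed. Among single genes, 56.1% of all tested had groups that did not overlap. No such share was computed for ratios of other genes. The WARS1 to WARS2 ratio was 11.2, 10.3 and 10.6 in control and 7.80, 7.55 and 7.10 in shLIS1, a difference of log2 means of -0.52. WARS2 itself was at 17.8, 19.8 and 19.2 CPM in control and 19.4, 19.1 and 20.4 CPM in shLIS1. WARS2-AS1, which overlaps it by 264 bases on the other strand, held 151% as many counts as WARS2. The MARS1 to MARS2 ratio was 14.8, 13.9 and 13.2 in control and 9.59, 9.20 and 10.9 in shLIS1, a difference of -0.50, with MARS2 at 24.4, 25.7 and 28.0 CPM in control and 28.3, 28.2 and 24.8 CPM in shLIS1. AARS1 to AARS2 went from 13.9, 13.3 and 12.7 to 10.9, 10.4 and 10.1, a difference of -0.34. In these pairs the cytosolic gene lost ground to its mitochondrial counterpart, and the differences of the fitted changes with the offset were -0.33, -0.38 and -0.46. CARS1 to CARS2 (-0.20), IARS1 to IARS2 (-0.27) and YARS1 to YARS2 (-0.12) were also lower, at -0.34, -0.31 and -0.05 with the offset. In the isoleucine pair IARS2 rose and IARS1 was not called.

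The threonine pair went the other way, since TARS2 fell and TARS1 did not. Its ratio was 9.36, 10.5 and 9.97 in control and 12.9, 13.4 and 13.4 in shLIS1, a difference of 0.41, but 0.09 with the offset. LARS1 to LARS2 (0.28) shrank to 0.02 with the offset, while NARS1 to NARS2 (0.26) and RARS1 to RARS2 (0.18) stayed at 0.22 and 0.15. LARS2 ranged from 25.02 to 26.3 CPM in control and from 24.7 to 28.3 CPM in shLIS1. RARS2 was at 44.9, 50.8 and 46.1 CPM in control and 50.5, 52.4 and 51.8 CPM in shLIS1. NARS1 was at 220.0, 253 and 229.9 CPM in control and 241, 259 and 253 CPM in shLIS1. For LARS2, RARS2 and NARS1 the control and shLIS1 libraries overlapped. For serine, the SARS1 to SARS2 ratios overlapped, at 52.3, 49.4 and 62.2 in control and 54.0, 51.5 and 51.7 in shLIS1, and the difference of the fitted changes with the offset was -0.27.

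**Figure D4:**
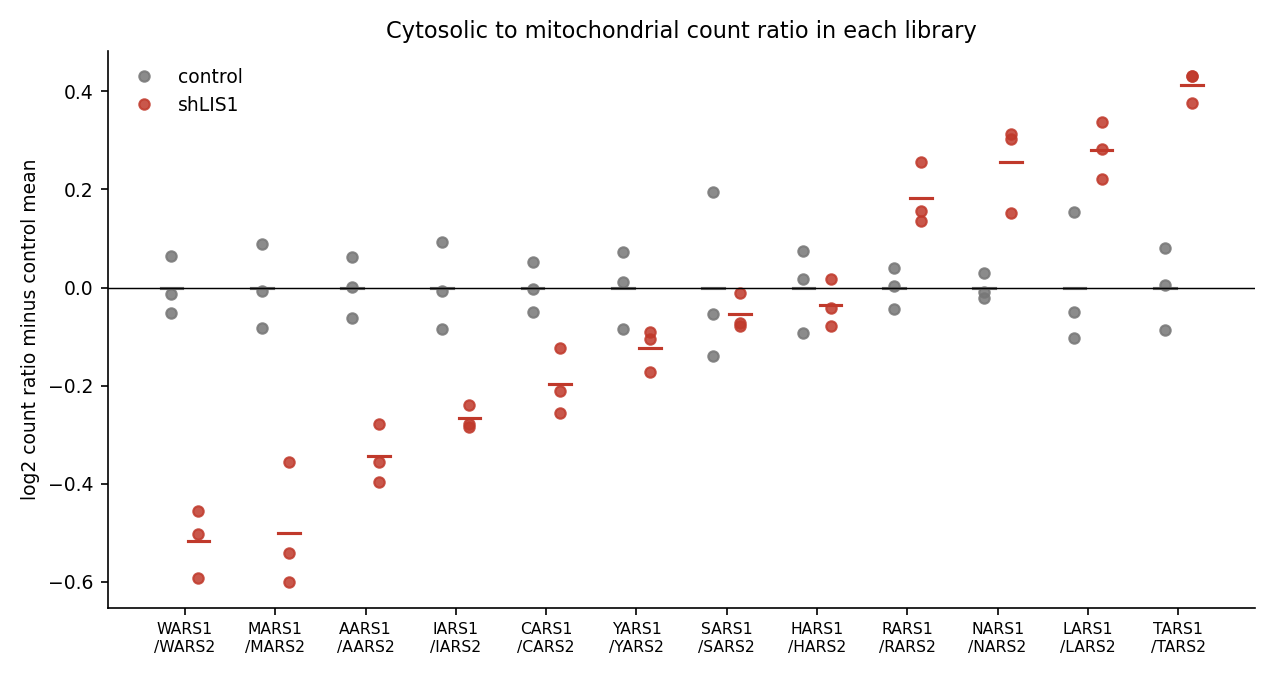
Log2 ratio of cytosolic to mitochondrial counts in each library, minus the mean of the control libraries, for 12 amino acids, with control in grey, shLIS1 in red and a line at each mean. The ratio fell most for tryptophan (WARS1 to WARS2, -0.52) and rose most for threonine (TARS1 to TARS2, 0.41).

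By place in the cell, the 3 cytosolic genes that rose were all members of the multisynthetase complex. Of its 7 enzymes among these genes, EPRS1, LARS1 and RARS1 rose, MARS1 and QARS1 fell, and IARS1 and KARS1 did not pass. Of the 12 free cytosolic genes, 7 fell and 0 rose. Among all genes tested, 24.9% fell and 23.5% rose (24.0% and 17.7% with the offset). The complex enzymes had transcripts of 41.4% to 55.2% GC and the free ones 41.6% to 62.6%. With the offset the complex held 1 rise and 4 falls and the free set 0 rises and 5 falls, and the medians were -0.13 and -0.11, against -0.03 and -0.23 without it. The complex scaffolds did not move together: AIMP1 rose (0.33), AIMP2 fell (-0.23) and EEF1E1 did not pass (-0.03), while with the offset EEF1E1 alone was called (-0.25).

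Of 13 cytosolic synthetase genes known as ATF4 targets, 7 fell, 2 rose (EPRS1 and LARS1) and 4 did not pass, with a median log2 fold change of -0.23. With the offset 7 fell and 0 rose, with a median of -0.22. By synthetase class, of 17 tested class I genes 8 fell and 3 rose, and of 16 class II genes 6 fell and 0 rose. EPRS1, which holds both classes in 1 chain and rose, was counted in neither. Other amino acid response genes are shown beside them. Of 26 tested, 17 fell and 5 rose (13 and 2 with the offset), with a median of -0.35. Over all genes tested, 24.9% fell and 23.5% rose (24.0% and 17.7% with the offset). No list or class was tested against these shares. PHGDH, the first enzyme of serine synthesis, fell (log2 fold change -1.29; -1.07 with the offset), as did NUPR1, a stress-induced chromatin protein (-1.17; -1.20 with the offset), and CTH, which makes cysteine from cystathionine, fell with -0.91. ATF3 (0.21; 0.29 with the offset) and STC2 (0.30; 0.29 with the offset) rose in both fits. SLC7A11 changed direction, rising on group alone (0.30, edgeR adjusted p = 0.016) and falling with the offset (-0.24, adjusted p = 0.012). ASNS, ALDH18A1, DDIT3 and SESN2 were called in neither. ASNS lay at only 0.789 to 1.92 CPM (-0.34, SE 0.31), so its missing call does not show that it was unchanged. ATF4 itself fell (-0.24, adjusted p = 0.00072) and was at -0.01 with the offset, where it was not called.

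Genes that act around the synthetases are given next, list by list. For comparison, 24.9% of all genes tested fell and 23.5% rose (24.0% and 17.7% with the offset). TARS3, a threonine paralogue outside the 35, was not called (log2 fold change 0.21). Of 4 export and delivery genes, EEF1A1, EEF1A2 and TUFM, the elongation factors that carry charged tRNA to the ribosome, fell (-0.32, -0.74 and -0.44), and XPOT, the tRNA exporter, was not called (0.12) but fell with the offset (-0.23). EEF1A1 has many pseudogenes, so its counts are uncertain. GATC, a subunit of the mitochondrial enzyme that makes glutamine tRNA from glutamate tRNA, fell (-0.31), its partner QRSL1 rose (0.25), and GATB and MTFMT were not called. With the offset GATC alone of the 4 was called (-0.47). Of 20 tested genes of tRNA end processing and splicing, 9 fell and 4 rose, with TSEN34, an endonuclease subunit, at -0.61 and TRNT1, which adds the CCA end, at 0.66. Of 5 tested editing and recycling genes 2 fell (DTD1 and PTRHD1) and 2 rose (AARSD1 and PTRH2). In the selenocysteine route SECISBP2 rose (0.45; 0.34 with the offset) and EEFSEC fell (-0.30), a call lost with the offset, as was that of PTRH2. Among the genes that sense uncharged tRNA, EIF2AK4 (0.16) and IMPACT (0.43), an inhibitor of its activation, rose, while GCN1, its activator, was not called (0.10), and with the offset GCN1 alone was called (0.20).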

How the data were processed

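The authors deposited raw read counts per gene, not normalized, for 6 libraries. Per the labels' protocols, polyadenylated RNA was captured and strand-marked with dUTP. The build is hg38 per the submitters' processing notes; aligner, counter, annotation release and strand setting: not given in the sources used here. Overlapping and antisense genes are therefore uncertain.

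The test was edgeR 4.0.16 (R 4.3.3) on group alone, after filterByExpr (minimum count 10, minimum total 15) and TMM scaling, with glmQLFit (robust) and glmQLFTest. Benjamini-Hochberg adjustment ran over 14964 genes, with a threshold of 0.05. SE was the size of the log2 fold change divided by the root of F. The offset smoothed each library's deviation jointly over GC content and log2 length of the transcript (mgcv 1.9.3, basis 6 per axis). It used the longest GENCODE transcript per gene, protein-coding preferred, for 14491 genes. Because the smooth includes the groups, it can also remove real change that follows length or GC content.

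On simulated counts for 14739 genes of shLIS1 against control, 18% of genes changed 1.25-fold, 72% at 1.5-fold, 80% at 2-fold and 94% at 4-fold were recovered, with 2.22% false calls. The simulation changed only 50 genes at each fold, whereas in the data 24.9% of genes fell and 23.5% rose. These rates therefore need not hold for the calls given above. The chi-square per gene was 2.65 to 11.3 within groups and 41.1 to 53.9 across them, so no replicate was merged. Of 39 promoter windows, 38 were matched along the gene's strand to a GENCODE transcript.

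Alternatives were RLE and upper quartile scaling, 2 filters, DESeq2 1.42.0, limma-voom (limma 3.58.1), no robust estimation, a replicate block, leaving out each library, and the offset. The genes and lists were chosen with earlier results of these data known. By rule, values in every library are given for genes past the threshold in both fits, for those whose call is lost or turns with the offset, and for their counterparts in the other compartment; others are given by range and count, and of the related lists genes past the threshold may be named. Genes named outside this rule were chosen after their values were seen. Some genes of the related lists are not reported here.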

Additional observations from a re-analysis of the deposited data

How the results depend on the processing

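The count of cytosolic genes that fell was 9 to 11 and of those that rose 3 to 4 in every alternative except the length and GC offset, where 1 rose. Leaving out 1 library gave 9 to 11 cytosolic falls and 3 to 4 rises, and 3 to 6 mitochondrial falls and 1 to 2 rises. With the offset 3 mitochondrial genes fell and 0 rose, and with upper quartile scaling 7 fell, AARS2 and NARS2 among them. The calls of SARS1, AARS1, WARS1, MARS1, CARS1, YARS1, QARS1, RARS1 and TARS2 held in all 15 alternatives.

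With the offset the sign turned, without a call, for FARSA (0.069), FARSB (-0.10), NARS1 (-0.015), TARS1 (-0.10), AARS2 (0.029), CARS2 (0.012), HARS2 (0.031) and WARS2 (-0.089). HARS2 lay at -0.00 and turned with RLE scaling (0.0098), no filter (0.0091), at least 1 CPM in 3 libraries (0.0062), DESeq2 (0.010) and limma-voom (0.0014). Leaving out 1 library gave -0.073 to 0.098 for HARS2, -0.067 to 0.019 for HARS1, -0.060 to 0.015 for IARS1 and -0.0068 to 0.11 for EARS2. The cause of these turns was not tested.

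Same-numbered libraries did not deviate together (correlations of -0.04, 0.03 and -0.04), so no pairing by number was seen in the values. These correlations cannot show whether same-numbered libraries were handled together. With the replicate block, 3484 genes were higher and 3682 lower, the counts of synthetase calls were the same, and HARS2 was at 0.0068. SARS2, PARS2 and VARS2 were the least counted genes, and depth limits SARS2 and PARS2. Whether depth or the gene overlapping it on the same strand limits the count of VARS2 was not tested.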
